A study of Mus musculus with 6 samples.

Results

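The proteasome genes were examined in RNA-seq of cardiomyocytes (CMs) that lack Cpt1b, the muscle isoform of the enzyme that lets fatty acids enter mitochondria for oxidation. Members were the protein-coding genes of the deposited table whose symbol starts with Psm and one of the letters a to g, which gave 49 of 16448 genes. They were the 7 constitutive alpha and the 7 constitutive beta subunits of the core, 3 immunoproteasome beta subunits, Psma8 of the testis form, 6 ATPases and 11 non-ATPase subunits of the regulatory cap, 6 activators or inhibitors, and 7 assembly factors. The remaining match, Psmc3ip, encodes a meiotic recombination factor and is not a proteasome gene. The thymus-specific core gene Psmb11 had no row in the table used here.

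CMs had been isolated from the ventricles of C57BL/6 mice aged 8 to 12 weeks by enzymatic perfusion. The control group, CtrlCre, was αMHC-Cre pos/+;Cpt1b +/+ with 3 samples, and the mutant group, Cpt1bcKO, was αMHC-Cre pos/+;Cpt1b fl/fl with 3 samples. Both groups therefore carried the Cre driven by the CM-specific αMHC promoter, and the floxed gene was inactivated from embryonic stages onwards. The labels do not say whether each sample was a separate animal, but the study gives the mouse as the unit of its expression comparison of these groups, so p-values are read as measuring the spread between mice.

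The proteasome is the main protease for proteins tagged with ubiquitin. Its barrel-shaped core stacks alpha and beta rings, and the beta rings hold the peptidase sites. Caps at the ends of the barrel recognize, unfold and feed in substrates, whereas other activators open the barrel without ATP. Interferon can replace the catalytic beta subunits by immunoproteasome subunits, which favour peptides for presentation on MHC class I, and in the heart muscle the proteasome takes part in the turnover of sarcomere proteins.

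The deposited values are normalized counts, that is, read numbers per gene that had been scaled between samples with size factors and then made whole by rounding. Their sums ranged from 13393411 to 31722217 per sample, and genes encoded by mitochondria and rRNA genes took up 74.8% to 78.1% of them in CtrlCre and 76.5% to 89.5% in Cpt1bcKO. Without these genes the sums were 3438589 to 3551692 in CtrlCre and 3146414 to 3315777 in Cpt1bcKO. The members made up 0.386% to 0.407% of these in CtrlCre and 0.344% to 0.382% in Cpt1bcKO, so that neither the sums nor the shares overlapped between the groups. The separation of the shares rested on the activators Psme1 and Psme4, and without them the shares overlapped. These 2 genes together had 4381, 4792 and 4416 normalized counts in CtrlCre and 2423, 2597 and 3612 in Cpt1bcKO samples 1, 2 and 3. The sums of the 31 constitutive subunits of core and cap overlapped. The targeted gene Cpt1b had 1861, 893 and 1443 normalized counts in CtrlCre samples 1, 2 and 3 and 211, 353 and 285 in Cpt1bcKO samples 1, 2 and 3, so that the groups did not overlap. All 8 CM markers of a list were detected in every sample, and their summed value was 244345 to 316047 in CtrlCre and 184010 to 218405 in Cpt1bcKO. Sample 1 of each group had 957 (CtrlCre) and 1080 (Cpt1bcKO) normalized counts of Xist, the RNA of the inactive X chromosome, against 23 to 78 in the other samples. These 2 samples also had 0 normalized counts of the Y-linked genes Ddx3y, Eif2s3y and Uty, so sex split each group in the same way. Groups were compared with limma on log2(value + 1) in the 11364 genes that reached 10 normalized counts in 3 or more samples, a scale on which the change of a low gene is understated.

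Of the 49 members, 44 passed this filter. The immunoproteasome subunit Psmb10 was the 1 member with an adjusted p below 0.05, and it was higher in Cpt1bcKO CMs, whereas 1.57% of all genes tested reached this threshold. An unadjusted p below 0.05 was reached by 3 members, Psmb10 upwards and the activators Psme4 and Psme1 downwards, against 13.9% of all genes. The groups did not overlap in 2 members, Psmb10 and the ATPase Psmc2, against 18.7% of all genes. Against this background, neither the unadjusted calls nor the separated groups stood out in number among the members. In 34 of the 44 members the log2 fold change lay within 0.25 of 0, compared with 5672 of the 11364 genes. The median standard error was 0.21 in the members and 0.26 in all genes, so these counts were not taken at equal precision.

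The log2 fold change was below 0 in 32 members, against 50.2% of all genes, and above 0 in 12, with a median of −0.087 against −0.0013 for all genes. This split was 20 lower and 24 higher when samples were scaled to their totals without mitochondrial-encoded and rRNA genes (non-mitochondrial scaling), 25 lower and 19 higher with upper-quartile scaling, and 22 lower and 22 higher without Cpt1bcKO sample 3. The non-mitochondrial scaling moved the median of all genes to 0.11, and relative to all genes the median of the members was −0.086 before and −0.084 after it. That difference rested in part on single samples, since it was −0.0048 without Cpt1bcKO sample 3 and −0.045 without CtrlCre sample 1, and the median of the members itself ranged from −0.14 to −0.0019 when a sample was left out. With sex as a term in the fit, an alternative chosen after the data were seen, adjusted p-values were below 0.05 for 3 members, Psmb10, Psme4 and Psme1, against 5.05% of all genes.

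**Figure D1:**
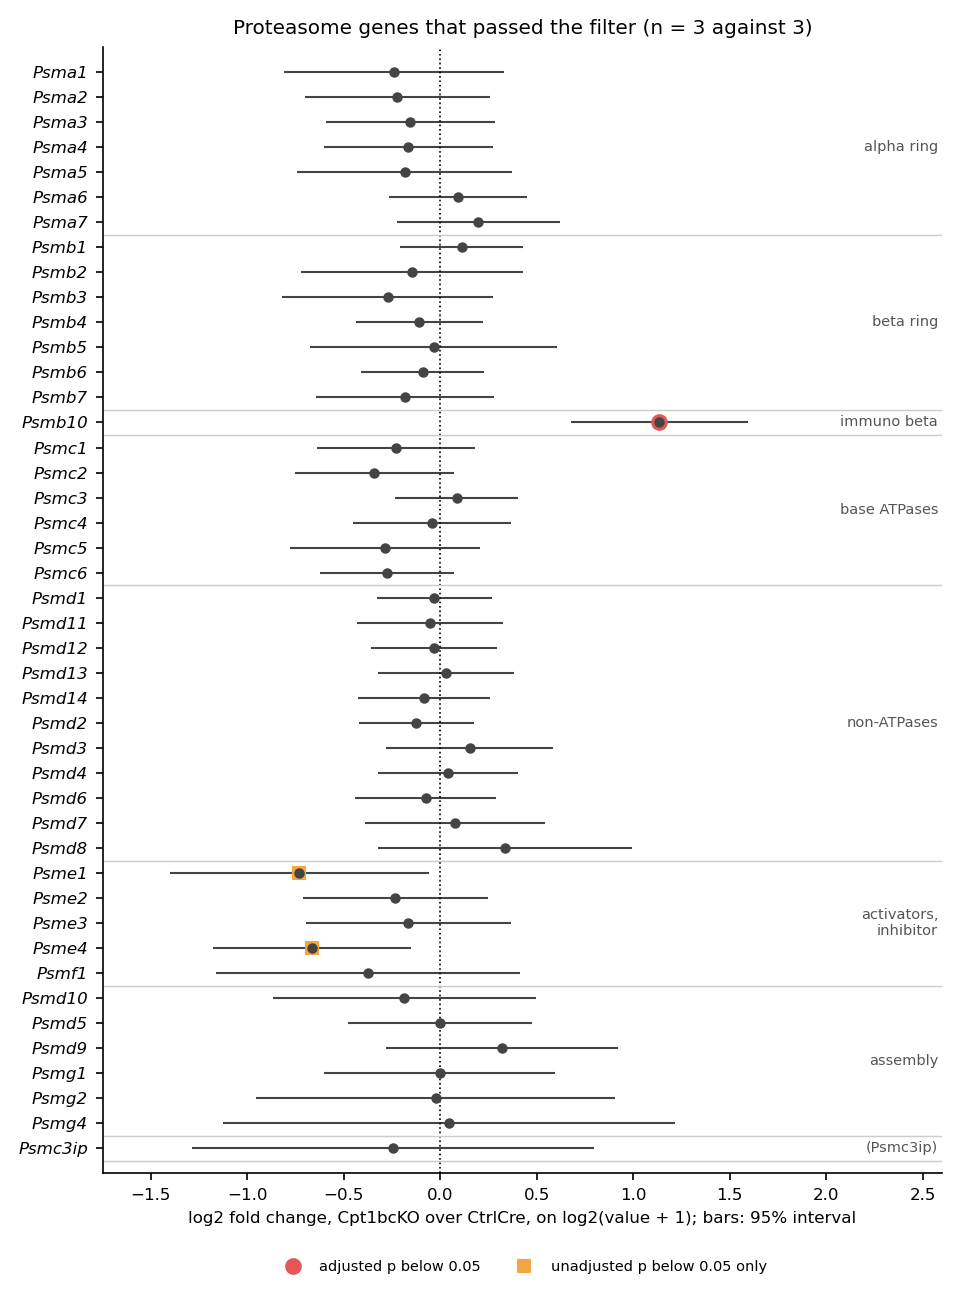
Log2 fold change of each of the 44 members that passed the filter (horizontal axis, Cpt1bcKO over CtrlCre on the log2(value + 1) scale) with its 95% interval, ordered by role. The red circle marks the adjusted p below 0.05 of Psmb10 at 1.13, and the orange squares mark the unadjusted p below 0.05 of Psme1 at −0.73 and Psme4 at −0.67.

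The catalytic subunits of the core were compared first, because each constitutive one has an immunoproteasome counterpart. Psmb5, Psmb6 and Psmb7 encode the chymotrypsin-like, caspase-like and trypsin-like subunits, and Psmb8, Psmb9 and Psmb10 encode their respective replacements. The gene Psmb10 is ENSMUSG00000031897 and spans bases 105935739 to 105938444 of chromosome 8 (GRCm38, minus strand). Psmb10 had 61, 68 and 63 normalized counts in CtrlCre samples 1, 2 and 3 and 180, 123 and 128 in Cpt1bcKO samples 1, 2 and 3. All 3 Cpt1bcKO samples were above all 3 CtrlCre samples, which lay close together, and Cpt1bcKO sample 1 was the highest. The means were 64.0 ± 3.6 (SD, n = 3) and 143.7 ± 31.6 (SD, n = 3). This amounted to 2.19-fold, or 1.13 on the log2 scale, with a standard error of 0.21, a 95% interval from 0.68 to 1.59 and an adjusted p of 0.0236 by limma (Benjamini-Hochberg over all genes). An exact two-sided permutation test gave p = 0.10, the smallest that 3 samples against 3 allow.

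The sign of the Psmb10 difference was the same within each sex. Between the female samples it was 61 against 180, and in the males 68 and 63 against 123 and 128. With sex as a term in the fit the adjusted p from limma was 0.00663. The call did not withstand every reduction of the data. Without Cpt1bcKO sample 2 or CtrlCre sample 1, 2 or 3 the adjusted p was 0.0813, 0.0732, 0.0808 and 0.0964 by limma, whereas the log2 fold change stayed between 0.96 and 1.23 over all 6 fits that left out a sample. The adjusted p from limma was also above 0.05 in the male samples alone and with 1 prior variance for all genes. In the annotation used here, the antisense gene Gm16156 lies on the opposite strand of Psmb10 without sharing exon bases.

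The upstream sequence of Psmb10 is shown because it was the member that passed the adjusted threshold. It covers chr8:105938445-105938642 of GRCm38.p6 and is written 5′ to 3′ on the minus strand, up to the base before the gene in the deposited table. It was taken from RefSeq and is all in lower case because none of the motifs described further down was found in the RefSeq window of 250 bases, of which the last 52 lie inside the gene of the deposited table and are not printed. The absence says only that these letters do not occur there.

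Psmb10: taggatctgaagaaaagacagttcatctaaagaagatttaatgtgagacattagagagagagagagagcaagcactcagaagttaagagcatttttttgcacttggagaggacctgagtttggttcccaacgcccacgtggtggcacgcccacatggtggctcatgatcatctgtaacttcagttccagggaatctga

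The other immunoproteasome subunits were near the lower end of what was measured and did not pass the filter. Psmb8 had 2, 9 and 12 normalized counts in CtrlCre and 7, 4 and 6 in Cpt1bcKO samples. Psmb9 had 3, 5 and 6 in CtrlCre and 2, 3 and 3 in Cpt1bcKO samples. The groups overlapped in either gene. In a fit without a filter, the 95% interval of the log2 fold change reached from −1.52 to 1.20 for Psmb8 and from −1.87 to 0.67 for Psmb9, so that of Psmb8 held the 1.13 of Psmb10 and that of Psmb9 did not. Psmb9 also shares exon bases with Tap1 on the opposite strand.

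The constitutive counterparts had the following values. Psmb7 had 136, 102 and 126 normalized counts in CtrlCre and 132, 96 and 94 in Cpt1bcKO, with a log2 fold change of −0.18 (standard error 0.21). Psmb5 had 54, 61 and 45 in CtrlCre and 77, 47 and 38 in Cpt1bcKO, with a log2 fold change of −0.034 (standard error 0.29). Psmb6 had 292, 285 and 300 in CtrlCre and 256, 285 and 283 in Cpt1bcKO, with a log2 fold change of −0.091 (standard error 0.14). The groups overlapped in all 3 genes, and the adjusted p-values from limma lay between 0.748 and 0.974. Intervals of these log2 fold changes reached from −0.67 to 0.61 for Psmb5, the least precise of them.

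The ratio of each replacement to its counterpart was calculated from values per kilobase of annotated exon. Psmb10 over Psmb7 was 0.900, 1.34 and 1.003 in CtrlCre samples 1, 2 and 3 and 2.74, 2.57 and 2.73 in Cpt1bcKO samples 1, 2 and 3. The ratio was thus higher in every Cpt1bcKO sample, by 1.33 on the log2 scale, and varied less among them than in CtrlCre. Psmb8 over Psmb5 was 0.0098 to 0.071 in CtrlCre and 0.023 to 0.042 in Cpt1bcKO, and Psmb9 over Psmb6 was 0.0053 to 0.010 and 0.0040 to 0.0054. In both pairs the replacement was thus listed far below its counterpart in all 6 samples, unlike Psmb10. The level of the Psmb10 to Psmb7 ratio depended on the length used, but its log2 difference between groups did not. Over the 6 samples Psmb10 averaged 60.9 and Psmb7 33.4 per kilobase of exon. Per kilobase of median coding transcript length, the order was reversed, with 79.2 for Psmb10 and 98.6 for Psmb7.

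**Figure D2:**
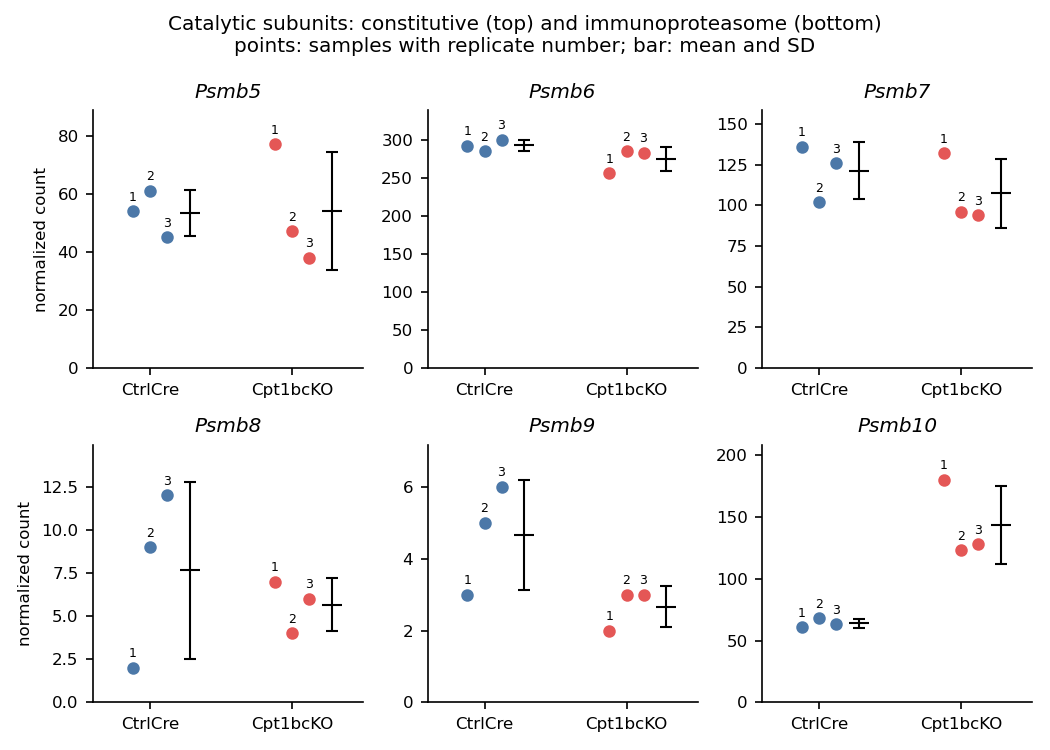
Normalized counts (vertical axes, starting at 0) of the constitutive catalytic subunits in the upper row and of their immunoproteasome replacements in the lower row, with 1 point per sample labelled by its number and the mean and SD beside it. Psmb10 lies at 61 to 68 in CtrlCre and 123 to 180 in Cpt1bcKO, whereas the groups overlap in the other 5 genes.

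Immunoproteasome subunits are also made by cells other than CMs, so marker lists of such cells were summed in each sample. The leukocyte list, of which 13 of 15 genes were in the table, summed to 115 to 215 normalized counts in CtrlCre and 172 to 202 in Cpt1bcKO, with Cd14 and C1qc at 0 in a sample. Of its 8 genes tested, 6 were higher and 2 lower (median log2 fold change 0.26), and 0 had an unadjusted p below 0.05. The endothelial list (8 of 8 genes, none at 0) summed to 1201, 2297 and 2514 in CtrlCre and 2518, 2589 and 2217 in Cpt1bcKO, and all 8 fold changes were higher than 0, 1 of them at an unadjusted p below 0.05. The fibroblast list (8 of 8 genes, none at 0) summed to 498 to 785 in CtrlCre and 1108 to 1338 in Cpt1bcKO. Leukocyte and endothelial sums overlapped between the groups, whereas the fibroblast sums did not. All 7 fibroblast markers that passed the filter were higher in Cpt1bcKO and reached the unadjusted threshold. Col1a1 and Lum also reached the adjusted one (both adjusted p = 0.0143 by limma). Fibroblast markers therefore moved with Psmb10, and their part in its difference was not tested. Of the other lists, the mural one (7 of 7 genes) summed to 1108 to 2300 in CtrlCre and 1174 to 1739 in Cpt1bcKO, with Tagln at 0 in a sample, and the erythroid one (2 of 5 genes) to 3 to 20 and 1 to 18. In bulk samples, fewer cells of a type and less RNA per cell cannot be told apart.

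Next, the remaining parts of the core were considered. Of the 7 alpha subunits, which form the outer rings and the gate, 5 were lower and 2 higher (median log2 fold change −0.17), with the same split under both other scalings, and none passed the test (adjusted p from limma 0.693 to 0.842). The median was −0.055 with the non-mitochondrial scaling and lay between −0.31 without Cpt1bcKO sample 1 and −0.043 without Cpt1bcKO sample 2. Psma1 had the largest fold change among them, with 365, 257 and 232 normalized counts in CtrlCre and 330, 239 and 167 in Cpt1bcKO and a log2 fold change of −0.24 (standard error 0.26). The groups overlapped widely in this gene. Psma6 had the highest level per kilobase of exon of the alpha subunits, 350 ± 46 (SD, n = 3) in CtrlCre and 373 ± 47 (SD, n = 3) in Cpt1bcKO. Psma2 had the lowest, 17.8 ± 1.8 (SD, n = 3) and 15.2 ± 2.2 (SD, n = 3).

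Of the 7 constitutive beta subunits, 6 were lower and 1 was higher (median −0.11), but 3 lower and 4 higher with the non-mitochondrial scaling, and none passed the test. Psmb3, a structural subunit without a peptidase site, had the largest fold change and the lowest level per kilobase, with 56, 54 and 59 normalized counts in CtrlCre and 57, 50 and 35 in Cpt1bcKO. Its log2 fold change was −0.27 (standard error 0.25). Cpt1bcKO sample 1 lay within the CtrlCre range and sample 3 was the lowest, and the log2 fold change was −0.075 without Cpt1bcKO sample 3 and −0.42 without Cpt1bcKO sample 1. The testis-specific Psma8 had 7, 2 and 2 normalized counts in CtrlCre and 4, 3 and 3 in Cpt1bcKO, below the filter.

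In the base of the regulatory cap, the 6 ATPases form a ring that unfolds substrates. Of these, 5 were lower and 1 was higher (median −0.25), or 4 and 2 under both other scalings, and none passed the unadjusted threshold. Their median was −0.14 with the non-mitochondrial scaling and lay between −0.36 without Cpt1bcKO sample 1 and −0.13 without CtrlCre sample 1. Psmc2 had 303, 231 and 196 normalized counts in CtrlCre and 194, 184 and 188 in Cpt1bcKO. All Cpt1bcKO samples were below all CtrlCre samples, but CtrlCre sample 3 came within 2 normalized counts of them. The difference was −0.34 on the log2 scale (standard error 0.19) with an adjusted p of 0.444 by limma, and it lay between −0.49 without CtrlCre sample 3 and −0.17 without CtrlCre sample 1. Psmc5 had the highest level per kilobase of the ATPases and 448, 298 and 373 normalized counts in CtrlCre against 405, 238 and 285 in Cpt1bcKO, with a log2 fold change of −0.29 (standard error 0.22). In this gene sample 1 was the highest of each group and the groups overlapped. With sex as a term in the fit, Psmc2 and Psmc6 had an unadjusted p below 0.05 and adjusted p-values from limma of 0.224 and 0.159. Psmc5 reached an unadjusted p of 0.0428 by limma under the replicate block and of 0.0301 without Cpt1bcKO sample 1.

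The 11 non-ATPase subunits of base and lid, which bind ubiquitin chains, remove them or hold the cap together, were split into 5 higher and 6 lower (median −0.031), or 10 and 1 with the non-mitochondrial scaling. None passed the test, and 10 of the 11 fold changes were within 0.25 of 0. Psmd2, a scaffold of the base, had the highest level per kilobase, 215 ± 8.8 (SD, n = 3) in CtrlCre and 197 ± 17 (SD, n = 3) in Cpt1bcKO. Its normalized counts were 854, 841 and 908 in CtrlCre and 730, 794 and 867 in Cpt1bcKO, with overlap. Psmd8 of the lid had the largest fold change, with 177, 113 and 87 in CtrlCre and 213, 149 and 111 in Cpt1bcKO and a log2 fold change of 0.34 (standard error 0.30), which was 0.095 without Cpt1bcKO sample 1 and 0.61 without CtrlCre sample 1. Samples with the number 1 were high and those with the number 3 low in both groups. Psmd11, a lid subunit that contacts the core, had 222, 212 and 232 in CtrlCre and 235, 235 and 176 in Cpt1bcKO and a log2 fold change of −0.056 (standard error 0.17), which turned to 0.056 with the non-mitochondrial scaling.

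Over all 31 constitutive subunits of core and cap, 22 were lower and 9 higher (median −0.084), or 13 and 18 with the non-mitochondrial scaling (median 0.028), and 0 had an unadjusted or adjusted p below 0.05 in limma. With sex as a term, 2 of them, Psmc6 and Psmc2, passed the unadjusted threshold, against 20.8% of all genes. It was passed by Psmc2, Psmc5 and Psmc6 under the replicate block and by Psmc5 and Psmc6 without Cpt1bcKO sample 1. It was also passed by Psmc2 without CtrlCre sample 3 and by Psmc6 in the male samples alone. Of all 11364 genes, 2362, 2262, 1288 and 2009 passed it in these fits, in the same order. The 95% intervals of the 31 subunits extended to either side by a median of 0.41 on the log2 scale and reached from 0.57-fold to 1.99-fold at the extremes. The summed values were 9347, 7973 and 8392 in CtrlCre samples 1, 2 and 3 and 8787, 7808 and 7750 in Cpt1bcKO samples 1, 2 and 3. Sample 1 was the highest of each group and the groups overlapped. The coefficient of variation among the samples of a group had a median of 13.0% in CtrlCre and 15.1% in Cpt1bcKO. Of the 31 subunits, 13 reached their highest value of all samples in CtrlCre sample 1 and 9 in Cpt1bcKO sample 1, and 10 had their lowest in Cpt1bcKO sample 3, compared with 23.5%, 16.0% and 19.9% of all genes tested.

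The levels of the 31 subunits per kilobase of exon differed 21.9-fold, from 16.5 in Psma2 to 362 in Psma6 as means over the 6 samples, with a median of 88.3 against 17.0 in 10375 protein-coding genes tested. Exon lengths were unions over all annotated transcripts and are therefore long in genes with many alternative exons. With the median length of the coding transcripts instead, an alternative chosen after the values were seen, Psma2 was again the lowest and Psmd2 was the highest. The order of levels thus depended in part on the length used, but Psma2 was at the lower end with both.

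**Figure D3:**
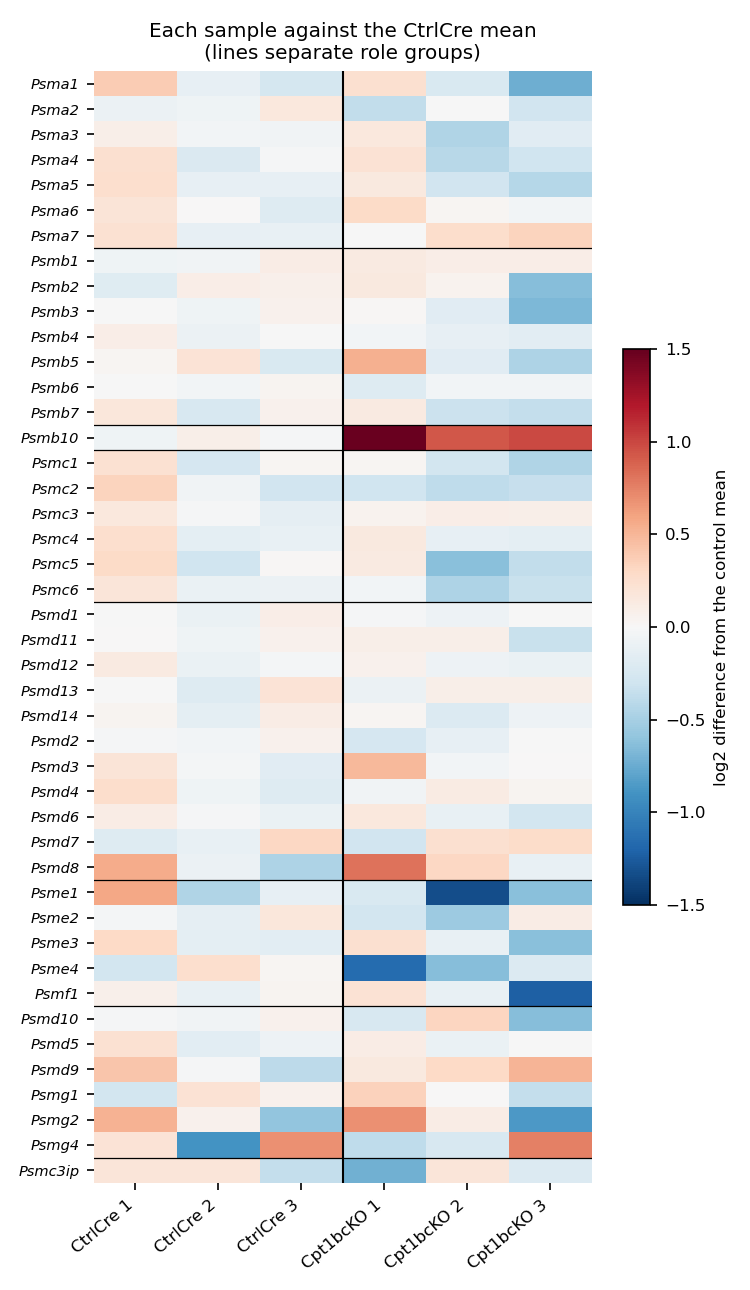
Log2 difference of each sample (columns) from the CtrlCre mean for the 44 members (rows, separated by role), with red for higher and blue for lower values on a scale cut at −1.5 and 1.5. Psmb10 is red in the 3 Cpt1bcKO samples. Psme1 and Psme4 are blue in them, but only faintly for Psme1 in Cpt1bcKO sample 1 and for Psme4 in Cpt1bcKO sample 3. Most constitutive subunits are pale in all 6 samples.

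The activators and the inhibitor had the lowest median of the role groups that held more than 1 member tested. All 5 that passed the filter were lower in Cpt1bcKO under each scaling (median log2 fold change −0.37), and 2 of them, Psme4 and Psme1, had an unadjusted p below 0.05, against 13.9% of all genes. Neither passed the adjusted threshold in the fit without sex or replicate block, but both did with either of these. The summed values of the group were 4760, 5097 and 4747 in CtrlCre and 2782, 2882 and 3862 in Cpt1bcKO, without overlap. Most of each sum came from Psme4 and Psme1, and the other 4 members summed to 379, 305 and 331 in CtrlCre and 359, 285 and 250 in Cpt1bcKO, with overlap.

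Psme4 encodes PA200, an activator that caps the core without ATP and is known for the degradation of acetylated histones. The gene is ENSMUSG00000040850 and spans bases 30771726 to 30880361 of chromosome 11 (plus strand). Psme4 had 2788, 4016 and 3441 normalized counts in CtrlCre samples 1, 2 and 3 and 1517, 2175 and 2925 in Cpt1bcKO samples 1, 2 and 3. Cpt1bcKO sample 3 was above CtrlCre sample 1, so the groups overlapped. Among the male samples they did not, with 4016 and 3441 in CtrlCre against 2175 and 2925 in Cpt1bcKO. The female samples, 1 per group and so unable to overlap, had 2788 in CtrlCre and 1517 in Cpt1bcKO. The difference was −0.67 on the log2 scale (standard error 0.23) with an adjusted p of 0.222 by limma, and the adjusted p was 0.0186 with sex as a term. Under the replicate block the adjusted p from limma was below 0.05 as well. The log2 difference lay between −0.89 without Cpt1bcKO sample 3 and −0.42 without Cpt1bcKO sample 1. Its unadjusted p from limma rose to 0.0700 without CtrlCre sample 2 and to 0.0511 with 1 prior variance for all genes.

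Psme1 encodes the alpha subunit of the interferon-inducible activator PA28 and Psme2 its beta subunit, which assemble into 1 ring. Psme1 is ENSMUSG00000022216 and spans bases 55578360 to 55581528 of chromosome 14 (plus strand). It had 1593, 776 and 975 normalized counts in CtrlCre samples 1, 2 and 3 and 906, 422 and 687 in Cpt1bcKO samples 1, 2 and 3. The groups overlapped because Cpt1bcKO sample 1 exceeded CtrlCre sample 2, whereas within the sexes each Cpt1bcKO sample was below each CtrlCre sample. The difference was −0.73 on the log2 scale (standard error 0.30) with an adjusted p of 0.310 by limma, and the adjusted p was 0.0351 with sex as a term. Under the replicate block it was below 0.05 as well. The log2 difference lay between −0.98 without Cpt1bcKO sample 1 and −0.43 without Cpt1bcKO sample 2. The unadjusted p exceeded 0.05 when CtrlCre sample 1 or 3 or Cpt1bcKO sample 2 or 3 was left out (0.149, 0.0543, 0.170 and 0.0537 by limma). It was also 0.0660 with the non-mitochondrial scaling and 0.0882 with 1 prior variance for all genes. Psme1 shares exon bases with Emc9 on the opposite strand, which had 27 to 37 normalized counts in CtrlCre and 39 to 80 in Cpt1bcKO.

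Psme2 had 104, 97 and 120 normalized counts in CtrlCre and 88, 73 and 115 in Cpt1bcKO, with a log2 fold change of −0.23 (standard error 0.22). Per kilobase of exon it reached 60.7 ± 6.7 (SD, n = 3) in CtrlCre, whereas Psme1 reached 505 ± 193 (SD, n = 3), the highest level of all members on this scale. The subunits of the same ring thus had unequal RNA levels per kilobase in every sample. Psme3, which encodes the nuclear activator PA28 gamma, had 222, 163 and 162 in CtrlCre and 214, 167 and 116 in Cpt1bcKO, with a log2 fold change of −0.17 (standard error 0.24). Psmf1, which encodes the inhibitor PI31, had 48, 42 and 47 in CtrlCre and 53, 42 and 19 in Cpt1bcKO, with a log2 fold change of −0.37 (standard error 0.36). The groups overlapped in these genes, and the low value of Psmf1 came from Cpt1bcKO sample 3 alone. Without that sample the log2 fold change was 0.068 for Psme3 and 0.049 for Psmf1. The Psme2-related gene Psme2b had 5, 3 and 2 normalized counts in CtrlCre and 4, 3 and 0 in Cpt1bcKO and stayed below the filter.

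CM markers moved in the same direction as these activators. All 8 were lower in Cpt1bcKO, with a median log2 fold change of −0.44, and Tnni3 (−0.996) and Pln (−0.85) had an unadjusted but not an adjusted p below 0.05. Their part in the differences of Psme4 and Psme1 was not tested.

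**Figure D4:**
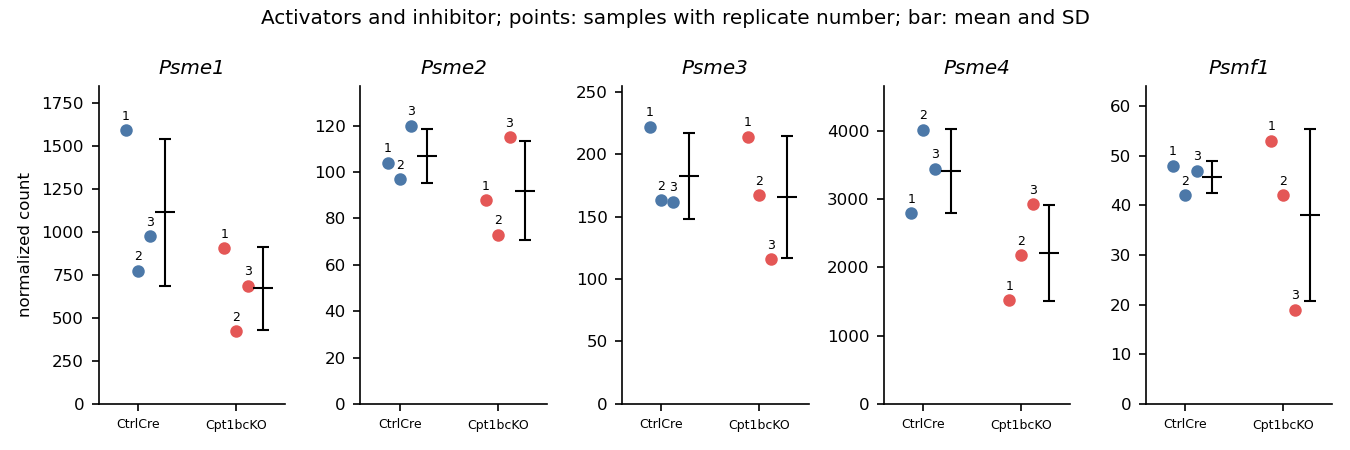
Normalized counts (vertical axes, starting at 0) of the activators Psme1 to Psme4 and the inhibitor Psmf1, with 1 point per sample labelled by its number and the mean and SD beside it. Psme4 lies at 2788 to 4016 in CtrlCre and 1517 to 2925 in Cpt1bcKO, and in Psme1 and Psme4 each Cpt1bcKO point is below the CtrlCre point of the same number.

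Assembly factors were at low levels and were centred near 0. Psmg1, Psmg2, Psmg3 and Psmg4 encode the chaperones of the alpha ring, and Psmd5, Psmd9 and Psmd10 those of the cap base. Of the 6 tested, 2 had a log2 fold change above 0 and 4 below 0 (median −0.0020), or 5 and 1 under both other scalings, and none passed the test. Psmd9 had the largest fold change, with 53, 39 and 30 normalized counts in CtrlCre and 44, 49 and 57 in Cpt1bcKO and a log2 fold change of 0.32 (standard error 0.27), which was 0.13 without CtrlCre sample 3 and 0.53 without CtrlCre sample 1. Its groups overlapped.

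Psmd5 had 71, 54 and 57 in CtrlCre and 65, 56 and 60 in Cpt1bcKO, and its log2 fold change was close to 0 (interval −0.48 to 0.48). Psmd10 had 33, 32 and 35 in CtrlCre and 28, 42 and 21 in Cpt1bcKO, with a log2 fold change of −0.19 (standard error 0.31). Its Cpt1bcKO values lay on both sides of CtrlCre. Psmg1 had 36, 51 and 46 in CtrlCre and 56, 44 and 34 in Cpt1bcKO. Psmg2 had 51, 37 and 23 in CtrlCre and 57, 38 and 19 in Cpt1bcKO. The groups overlapped in both genes. Psmg4 had 14, 6 and 20 in CtrlCre and 9, 10 and 21 in Cpt1bcKO. Psmg3, with 1, 5 and 6 in CtrlCre and 3, 5 and 3 in Cpt1bcKO, did not pass the filter. Log2 fold changes of Psmg1, Psmg2 and Psmg4 were −0.0035, −0.023 and 0.045, with intervals that reached 1.22 for Psmg4, so a doubling of this gene was not detectable at its level.

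Further genes of the pathway were taken from a list of 30, of which 29 were in the table and passed the filter. Of these, 12 were higher and 17 lower (median −0.047), or 16 and 13 with the non-mitochondrial scaling, 1 had an unadjusted p below 0.05, against 13.9% of all genes, and 0 passed the adjusted threshold in limma. Akirin2, which takes part in the nuclear import of proteasomes, had 236, 197 and 218 normalized counts in CtrlCre and 183, 147 and 150 in Cpt1bcKO. The groups did not overlap, and the log2 fold change was −0.44 (adjusted p = 0.274 by limma). Under the non-mitochondrial scaling it was −0.33 with an unadjusted p of 0.0860. That p from limma was also above 0.05, between 0.0636 and 0.0861, without CtrlCre sample 1 or 3 or Cpt1bcKO sample 2 or 3.

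Nfe2l1, the transcription factor that raises proteasome genes when the proteasome is impaired, had 2960, 2410 and 2649 normalized counts in CtrlCre and 2645, 1974 and 2036 in Cpt1bcKO, with a log2 fold change of −0.28 (adjusted p = 0.469 by limma). Its relative Nfe2l2 had 181, 161 and 224 in CtrlCre and 178, 150 and 177 in Cpt1bcKO. Both genes overlapped between the groups. The assembly factor Pomp had 296, 235 and 313 in CtrlCre and 330, 270 and 260 in Cpt1bcKO. The ubiquitin receptor Adrm1 had 191, 119 and 137 in CtrlCre and 213, 121 and 110 in Cpt1bcKO. Neither gene had a log2 fold change beyond 0.05 in size. Of the deubiquitinases of the cap, Usp14 had a log2 fold change of 0.25 (294, 248 and 283 against 339, 383 and 268) and Uchl5 one of −0.31 (69, 75 and 87 against 99, 59 and 40), and the groups overlapped in both. The value of Uchl5 was −0.0035 without Cpt1bcKO sample 3 and −0.65 without Cpt1bcKO sample 1.

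Nfe2l1 and Nfe2l2 bind antioxidant response elements, so the 250 bases upstream of each RefSeq start (GRCm38.p6) were searched for TGACNNNGC on both strands. Windows were found for 41 of the 49 members, and 5 of them (12.2%) held a match, namely Psmb5, Psmb6, Psmc6, Psmd12 and Psmd9, against 11.5% of 27018 genes. The upstream sequences of the catalytic subunits Psmb5 and Psmb6 are shown as the matches in constitutive peptidase genes, with the element in capitals. Psmb5 is written on the minus strand and covers chr14:54617996-54618245, and Psmb6 is written on the plus strand and covers chr11:70525107-70525356. The element lies 47 to 39 bases before the start in Psmb5 and 9 to 1 bases before it in Psmb6.

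Psmb5: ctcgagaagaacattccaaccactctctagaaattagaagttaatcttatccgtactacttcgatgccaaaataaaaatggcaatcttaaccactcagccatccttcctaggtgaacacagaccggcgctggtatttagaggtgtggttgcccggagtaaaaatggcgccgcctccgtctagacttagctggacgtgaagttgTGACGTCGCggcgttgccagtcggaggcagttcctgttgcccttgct

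Psmb6: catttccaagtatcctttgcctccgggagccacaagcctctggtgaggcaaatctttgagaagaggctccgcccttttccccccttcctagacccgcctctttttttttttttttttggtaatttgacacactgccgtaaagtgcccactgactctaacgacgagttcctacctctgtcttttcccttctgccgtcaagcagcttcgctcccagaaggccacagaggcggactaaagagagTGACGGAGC

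The log2 fold changes of the 5 members with this element were −0.034 in Psmb5, −0.091 in Psmb6, −0.28 in Psmc6, −0.035 in Psmd12 and 0.32 in Psmd9, and none passed the test. A CCAAT box (CCAAT) was found in 14 of the 41 members (34.1%) against 37.5% of genes, and a GC box (GGGCGG) in 22 (53.7%) against 35.4%, among them Psme1 and Psme4. The gamma-activated sequence TTCNNNGAA of interferon signalling occurred in 2 (4.88%, Psmb8 and Psmg1) against 8.13%, and the core of the interferon-stimulated response element, GAAA repeated after any pair of bases, in 3 (7.32%, Psmb3, Psmd4 and Psmd9) against 3.46%. Both strands were searched in each case, and in Psmd9 the antioxidant response element overlaps a GC box. Such matches describe letters in these windows and not sites of binding.

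A list of genes of interferon signalling and MHC class I presentation was examined last. All 12 genes of this list could be tested, 7 had a log2 fold change below 0 and 5 above 0 (median −0.19), and 3, all lower, had an unadjusted p below 0.05, against 13.9% of all genes. With the non-mitochondrial scaling 6 were below and 6 above 0 (median −0.079), and under either other scaling 2 had an unadjusted p below 0.05. In the fit without sex or replicate block, 0 passed the adjusted threshold in limma. Among the 3 genes, Calr and Pdia3 encode folding factors of the endoplasmic reticulum that also serve the loading of MHC class I. Calr had 4949, 2215 and 3247 normalized counts in CtrlCre and 1933, 1774 and 2118 in Cpt1bcKO, without overlap, and a log2 fold change of −0.76 (adjusted p = 0.192 by limma), which lay between −1.05 without CtrlCre sample 2 and −0.47 without CtrlCre sample 1. Its adjusted p from limma was 0.0471 with sex as a term and 0.0303 under the replicate block. Pdia3 had 1211, 727 and 1055 in CtrlCre and 780, 612 and 635 in Cpt1bcKO, with overlap and a log2 fold change of −0.54 (adjusted p = 0.25 by limma, or 0.0338 under the replicate block). Its unadjusted p from limma was above 0.05, between 0.0562 and 0.0832, without CtrlCre sample 1 or 3 or Cpt1bcKO sample 2 or 3.

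Irf1, an interferon-induced transcription factor, had 103, 45 and 73 normalized counts in CtrlCre and 39, 55 and 35 in Cpt1bcKO, with a log2 fold change of −0.71 (adjusted p = 0.356 by limma). Its unadjusted p from limma was above 0.05 without CtrlCre sample 1 or 3 or Cpt1bcKO sample 1 or 3, and the log2 fold change was −0.43 without CtrlCre sample 1, where that p was highest at 0.203. The direction was opposite to that of Psmb10, and 2 of its 3 Cpt1bcKO values were below all CtrlCre values. Nlrc5, the activator of MHC class I genes, had 10, 6 and 22 in CtrlCre and 10, 21 and 31 in Cpt1bcKO, with overlap and a log2 fold change of 0.71 (adjusted p = 0.609 by limma), which was 0.31 without CtrlCre sample 2 and 1.17 without CtrlCre sample 3. In the fit without sex, Psmb10 was thus the only gene among the immunoproteasome subunits, PA28 genes and these 12 genes that was higher in Cpt1bcKO at an adjusted p below 0.05, with Psmb8 and Psmb9 tested only in the fit without a filter.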

How the data were processed

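RNA-seq of CMs from 3 CtrlCre and 3 Cpt1bcKO samples was used. Libraries had been made with a stranded total RNA kit. Per the submitters' processing notes and the methods, reads were trimmed with Trimmomatic 0.36, aligned with STAR 2.5.4b to mm10 (GRCm38.p5), counted with featureCounts 1.6.0, without reads on several genes or regions, and normalized with DESeq2 1.14.1. The annotation release and the use of strand in counting are not given in the sources used here. The deposited table holds these normalized counts rounded to whole numbers, a score rather than raw counts, so no count model was applied and the depth of each sample is unknown. Another 6 columns with the authors' own means, fold changes and p-values were not used.

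Values were compared on log2(value + 1) with limma 3.58.1 (lmFit, eBayes with trend, R 4.3.3) in genes that reached 10 in 3 or more samples, with two-sided p-values and Benjamini-Hochberg adjustment over all 11364 genes. The steps were also run on simulated data without an effect of sex, which checks the code and not how well it suits these data. Role groups and lists were described by counts and medians. The members and lists were chosen with earlier results of these data known. Named genes were the catalytic subunits, activators, assembly factors and members below the filter, members with an unadjusted p below 0.05, and in each role the highest and lowest level per kilobase and the largest fold change, besides listed pathway genes. Psmd12, Psmd4, Psmc6 and 4 of the markers (Col1a1, Lum, Tnni3 and Pln) were named after their values were seen.

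Exon lengths came from GENCODE M21, matched by identifier for all 49 members, of which 34 had the same start and end there within 1 base. Coordinates are those of the deposited table. Of the members, 7 share exon bases with a gene on the opposite strand that is also in the table. Upstream sequences are from RefSeq (GRCm38.p6). Python 3.11.15 served for tables and plots. Alternatives were other scalings, filters, pseudocounts of 0.5 and 5, 1 prior variance, a replicate block and leaving out each sample, and, added after the data were seen, sex as a term, the male samples alone and another gene length.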

Additional observations from a re-analysis of the deposited data

How the results depend on the processing

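For 55 results and 16 settings, 717 of 805 alternative values were counted as kept. For a gene, this meant the same direction and the same side of the adjusted threshold. Medians and ratios had to stay within the spread between samples, and counts of genes within a fixed ratio of the main count. With the replicate block or sex as a term, log2 fold changes were unchanged by design, so their direction was kept in advance. Members with an unadjusted p below 0.05 by limma numbered 3, against 1 with 1 prior variance for all genes, 6 with the replicate block, 5 with sex as a term, 4 in the male samples alone and 2 to 5 when a sample was left out. Over all genes the same threshold was reached by 1578, against 1474 with 1 prior variance, 2362 with the block, 2367 with sex as a term, 2009 in the male samples alone and 1007 to 2262 when a sample was left out. Members with an adjusted p below 0.05 numbered 1, against 0 with 1 prior variance, 3 with the block, 3 with sex as a term, 0 in the male samples alone and 0 to 1 when a sample was left out. The log2 fold change of Psmb10 was 1.13 with an adjusted p of 0.0910 with 1 prior variance, 0.93 with an adjusted p of 0.0607 in the male samples alone, and 0.96 to 1.23 when a sample was left out. Over all alternatives its adjusted p from limma was highest at 0.0964 and lowest at 0.00663.

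Pathway genes with an unadjusted p below 0.05 by limma numbered 1, against 0 with the scaling without mitochondrial-encoded and rRNA genes, 4 with the block, 3 with sex as a term, 3 in the male samples alone and 0 to 3 when a sample was left out. Of the interferon and MHC class I genes, 3 reached it, against 1 with 1 prior variance, 2 with either other scaling, 4 with the block, 4 with sex as a term and 1 to 3 when a sample was left out. The median of the non-ATPases was 0.081 with the former scaling, and that of the constitutive beta subunits ranged from −0.29 to −0.075 when a sample was left out, the lowest without Cpt1bcKO sample 1. Over all genes, 178 had an adjusted p below 0.05, against 41 with 1 prior variance, 603 with the block, 574 with sex as a term and 42 to 329 when a sample was left out.

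Some signs turned. With the scaling without mitochondrial-encoded and rRNA genes the log2 fold changes were 0.067 in Adrm1, 0.075 in Psmb5, 0.021 in Psmb6, 0.056 in Psmd11, 0.11 in Psmd5, 0.11 in Psmg1 and 0.086 in Psmg2, and with upper-quartile scaling 0.00035 in Adrm1, 0.0099 in Psmb5, 0.044 in Psmd5, 0.041 in Psmg1 and 0.021 in Psmg2. When a sample was left out they ranged from −0.34 to 0.15 in Adrm1, −0.094 to 0.11 in Pomp, −0.48 to 0.0084 in Psma1, −0.0068 to 0.19 in Psma6, −0.32 to 0.18 in Psmb5, −0.44 to 0.042 in Psmd10, −0.12 to 0.083 in Psmd11, −0.078 to 0.12 in Psmd5, −0.37 to 0.068 in Psme3, −0.67 to 0.049 in Psmf1, −0.18 to 0.17 in Psmg1, −0.37 to 0.39 in Psmg2 and −0.40 to 0.39 in Psmg4. Without a change of sign they ranged from −0.12 to −0.041 in Psmb6, −0.34 to −0.096 in Psmb7 and −0.50 to −0.11 in Psmc5. The same held for −0.41 to −0.082 in Psme2, −0.41 to −0.20 in Nfe2l1 and 0.14 to 0.39 in Usp14. The median of the assembly factors ranged from −0.11 to 0.13. The cause of these differences was not tested.

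The samples share replicate numbers. Deviations from the group means correlated between same-numbered samples across genes with r of 0.38, 0.25 and 0.068 for numbers 1, 2 and 3. Number 3 correlated better with number 2 of the other group (0.12 and 0.15). With 3 samples per group, these values cannot decide whether the numbers pair the samples beyond the shared sex. The block gave adjusted p-values by limma of 0.00931 for Psmb10, 0.00609 for Psme1, 0.0215 for Psme4, 0.0303 for Calr and 0.0338 for Pdia3. Precision is limited at low values, where Psmb8, Psmb9, Psma8, Psme2b and Psmg3 were tested only without a filter, with unadjusted p-values by limma of 0.324 to 0.938.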
